A study of Rattus norvegicus with 3 samples.

Results

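The 10 genes described here encode the core of the NF-kB system: the 5 subunits Rela, Rel, Relb, Nfkb1 and Nfkb2, the 3 cytoplasmic inhibitors Nfkbia, Nfkbib and Nfkbie, the kinase subunit Ikbkb, and the ubiquitin-editing enzyme Tnfaip3 (A20). They were chosen by name and pathway role, and all 10 were found by symbol among the 18425 genes of the deposited table. RNA was sequenced from dissected retinas of wild-type (WT) Sprague-Dawley rats at P4, 3 days after an intravitreal injection given at P1. All 3 groups received 1 µl into the vitreous: the Buffer group citrate buffer of pH 4.5, the Saline group saline, and the STZ group 10 µg of streptozotocin (STZ), a nitrosourea that alkylates DNA, diluted in the same citrate buffer. The buffer group is therefore the vehicle control and the saline group a second injected control. In the study's intravitreal experiments on function and morphology, STZ went into right eyes and buffer into the fellow left eyes. Whether the sequenced buffer and STZ retinas came from the same animals is not stated. Uninjected retinas were not analysed here, and how many animals or eyes went into a library is not given in the sources used here. There was 1 library per condition, so no difference below has a replicate check and none has a p-value.

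NF-kB is a family of dimeric transcription factors that wait in the cytoplasm of most cells, held there by IkB proteins. Signals from cytokine receptors, pattern receptors or DNA damage activate the IkB kinase complex, which marks IkB for destruction and frees the dimers to enter the nucleus. The dimers then switch on inflammatory and survival genes, and among these are genes of their own inhibitors, which close a negative feedback loop. In the retina, the pathway is best known from microglia and Müller glia. Because the system is controlled mainly through protein turnover and location, messenger RNA levels report the supply of its parts and the response of its feedback genes, not the activity of the factor.

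The NF-kB binding motif was looked up first in the promoters of the genes themselves, because several of them are known feedback targets. The motif searched was the kB consensus, a run of 10 bases with 3 G, then 1 purine, 2 bases of any kind, 2 pyrimidines and 2 C, on both strands, with overlapping matches joined. The window was 300 bases long, from 250 bases before to 50 bases after the annotated start of the gene, in RefSeq sequence of the assembly GRCr8. Promoters of 8 of the 10 genes were in the table used, and Relb and Ikbkb were not. A match stood in 6 of these 8 promoters (75%), against 7.6% of all 27457 promoters of that length and 9.88% of the 11543 promoters of genes expressed in these libraries, meaning genes that averaged 10 or more reads over the 3 of them. In promoters of the pathway lists described further on, the share was 41.7% for target genes (10 of 24), 28.6% for receptors and ligands and for other inhibitors and deubiquitinases (4 of 14 each), 18.2% for upstream kinases and adaptors (4 of 22) and 9.09% for ubiquitin ligases and cofactors (1 of 11). The members' promoters were also rich in G and C, at 59.7% to 77.3% against a median of 52.3% over all promoters, and how much of the difference follows from base composition was not tested. The stretches around the matches are printed here because this count rests on them. Each is given 5′ to 3′ on the strand of the gene, with the kB match in capitals.
Rel, GRCr8 chr14:101922127-101922177, minus strand: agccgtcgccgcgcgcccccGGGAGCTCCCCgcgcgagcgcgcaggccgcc
Rel, GRCr8 chr14:101921990-101922040, minus strand: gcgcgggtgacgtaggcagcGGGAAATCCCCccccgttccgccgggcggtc
Nfkb1, GRCr8 chr2:226805440-226805469, minus strand: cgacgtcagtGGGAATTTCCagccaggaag
Nfkb2, GRCr8 chr1:255108334-255108373, plus strand: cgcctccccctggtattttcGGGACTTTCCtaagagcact
Nfkbia, GRCr8 chr6:78597074-78597123, minus strand: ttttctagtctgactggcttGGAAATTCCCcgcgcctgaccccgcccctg
Nfkbie, GRCr8 chr9:22948007-22948056, minus strand: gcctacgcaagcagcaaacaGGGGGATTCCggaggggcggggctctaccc
Tnfaip3, GRCr8 chr1:15544120-15544169, minus strand: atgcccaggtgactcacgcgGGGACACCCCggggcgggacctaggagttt
Tnfaip3, GRCr8 chr1:15544005-15544066, minus strand: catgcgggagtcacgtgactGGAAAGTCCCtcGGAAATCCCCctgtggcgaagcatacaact

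Counted from the start site, with the base before it as -1, the match of Nfkbia, the classical feedback inhibitor IkBα, lay at -31 to -22 and that of Nfkb2 at -20 to -11. The match of Nfkb1 lay just past the start, at 4 to 13. Tnfaip3, the feedback deubiquitinase, held 3 matches, of which the pair at -67 to -58 and -55 to -46 stood next to each other. Rel held 2 separate matches, at -219 to -209 and -82 to -72, each an 11-base run that reads as the motif on both strands. Nfkbie held 1, at -164 to -155. No match to these letters was found in the windows of Rela and Nfkbib. A match of letters is a description of the sequence and was not tested as a site of binding.

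Levels of the 10 genes are given as FPKM, fragments per kilobase corrected for library size, which allows genes of different length to be compared. In all 3 libraries the order from the top was Nfkbia, Ikbkb, Rela, Nfkb1, Nfkbib and Nfkbie, and Rel was the least abundant of the 10. Nfkbia lay above 78.7% of the expressed genes, Ikbkb above 63.2% and Rela above 48.8%, whereas Rel lay above 9.84% of them. Between neighbours in this order, the counting intervals of Nfkb1 and Nfkbib overlapped in the buffer and STZ libraries, and those of Nfkbie and Tnfaip3 overlapped in the buffer library. Tnfaip3, Nfkb2 and Relb were close to each other: Tnfaip3 and Nfkb2 overlapped in all 3 libraries, and Relb overlapped both of them in saline and STZ but not in buffer. The counting intervals are exact at the 95% level, and they cover counting error only, since the reads carry no molecular identifiers and need not stem from separate molecules.

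**Figure D1:**
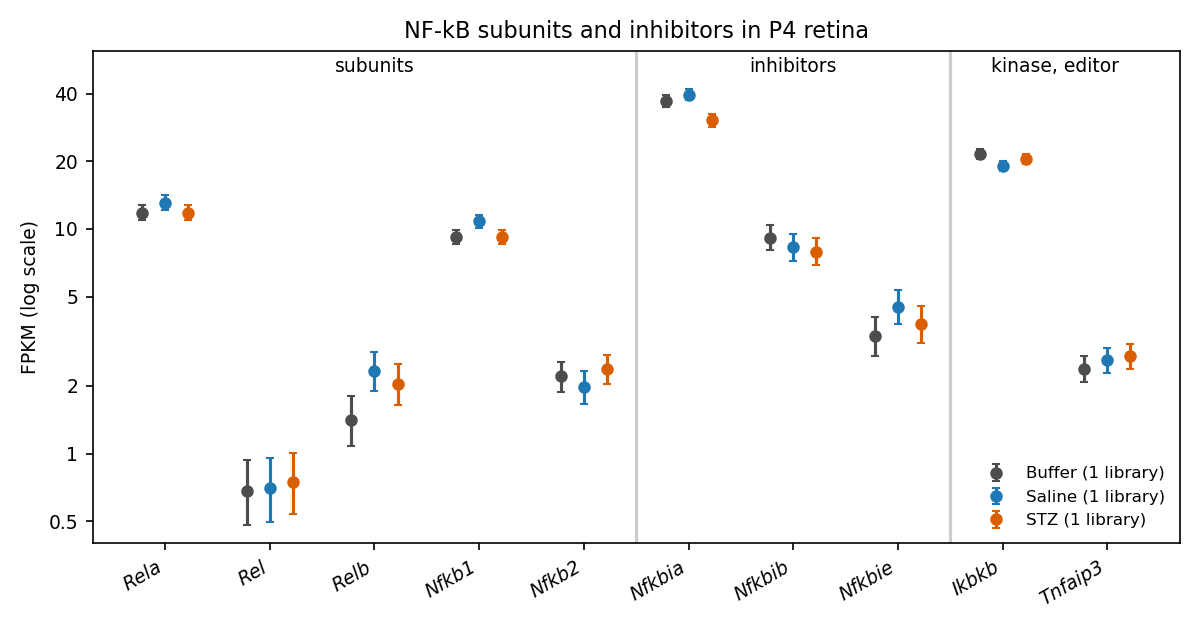
FPKM (log scale) of the 10 genes in the Buffer, Saline and STZ libraries, 1 point per library, with bars for the exact 95% counting interval, grouped into subunits, inhibitors, and the kinase with the ubiquitin editor. Nfkbia is the most abundant gene in every library and its STZ point (30.39) lies below both controls (37.1 and 39.52), and the buffer point of Relb (1.41) lies below its saline and STZ points (2.33 and 2.04).

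By the fold used in this study's methods, (FPKM + 1)/(FPKM + 1) above 1.54 or below 0.65, none of the 10 genes passed in any of the 3 comparisons of libraries. Of all 18425 genes, 3.29% passed in either direction in STZ compared with buffer, 3.78% in STZ compared with saline and 1.43% in saline compared with buffer, so that with 10 genes a count of 0 is near this background. The member folds ran from 0.824 to 1.26 in STZ compared with buffer, from 0.775 to 1.13 in STZ compared with saline, and from 0.888 to 1.38 in saline compared with buffer. The median log2 fold of the 10 genes was 0.03, -0.10 and 0.09 in these comparisons, beside 0.03, 0.01 and 0.02 over the 14885 expressed genes. All 10 genes were among the expressed ones. The 3 comparisons share libraries and are not independent of each other.

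A second measure was the count ratio, in which the reads of a gene were divided by the total of their library and the quotients of both libraries compared, with a 95% interval. The interval excluded 1 for 2 of the 10 genes in STZ compared with buffer, for 3 in STZ compared with saline and for 4 in saline compared with buffer. Among the expressed genes it did so for 45%, 50.4% and 27.8%, so a ratio outside counting error was common in this table, also between the controls. The STZ library lay above both controls in FPKM for Rel, Nfkb2 and Tnfaip3, below both for Rela, Nfkbia and Nfkbib, and on or between them for the other 4. For Rela the STZ and buffer values were level, at 11.8 and 11.82 FPKM. The STZ library lay outside the range of the controls for 79.3% of the expressed genes.

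Rela encodes p65, the subunit with the strongest transactivation domain and the usual partner of p50. Its reads numbered 575 in buffer, 634 with saline and 575 after STZ, or 11.82, 13.05 and 11.8 FPKM. The buffer and STZ libraries were level and the saline library a little higher. The fold was 0.998 in STZ compared with buffer (count ratio 0.998, interval 0.888 to 1.12) and 0.911 in STZ compared with saline (count ratio 0.905, interval 0.807 to 1.01).

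Nfkb1 encodes the p105 precursor, which is processed to p50. It had 752, 881 and 752 reads across buffer, saline and STZ, or 9.22, 10.81 and 9.22 FPKM. The saline library stood above the other two, as it did for Rela. The count ratio was 0.998 in STZ compared with buffer (interval 0.901 to 1.11), 0.852 in STZ compared with saline (interval 0.772 to 0.94), and 1.17 in saline compared with buffer (interval 1.06 to 1.29). The interval excluded 1 in the latter pair of comparisons, which share the saline library.

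Relb encodes the subunit that pairs with p52 in the non-canonical branch of the pathway, and is itself a gene that NF-kB induces. It had 61, 102 and 89 reads across buffer, saline and STZ, or 1.41, 2.33 and 2.04 FPKM. Both the saline and the STZ library were above buffer, and STZ was not above saline. The fold was 1.26 in STZ compared with buffer (log2 0.34), with a count ratio of 1.46 (interval 1.04 to 2.05), and 1.38 in saline compared with buffer (log2 0.47), with a count ratio of 1.67 (interval 1.21 to 2.34). Between STZ and saline the fold was 0.913 and the count ratio 0.87 (interval 0.648 to 1.17). Relb thus had the widest spread of the 10 genes, with a highest FPKM 1.65 times its lowest, and its extremes were the 2 controls.

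Nfkb2 encodes p100, the precursor of p52 and itself an inhibitor of RelB dimers. Its reads numbered 165, 142 and 179 in buffer, saline and STZ, or 2.21, 1.98 and 2.37 FPKM. The STZ library was the highest and the saline library the lowest. The count ratio was 1.08 in STZ compared with buffer (interval 0.872 to 1.35) and 1.26 in STZ compared with saline (interval 1.003 to 1.58). The second interval only just excluded 1.

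Rel encodes c-Rel, the subunit found chiefly in lymphoid and myeloid cells. It had 38, 39 and 42 reads, or 0.68, 0.7 and 0.75 FPKM, in buffer, saline and STZ. The libraries were level within wide intervals, with a count ratio of 1.1 in STZ compared with buffer (interval 0.694 to 1.76). This interval also holds the Relb ratio of 1.46, so a difference of that size was not detectable for Rel at this depth.

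Together, the 5 subunit genes summed to 25.34, 28.87 and 26.18 FPKM across buffer, saline and STZ. Rela and Nfkb1, which encode the classical p65 and p50 pair, made up 83%, 82.6% and 80.3% of that sum. The remaining 3 subunits had 264, 283 and 310 reads in total, a count ratio of 1.17 in STZ compared with buffer (interval 0.992 to 1.39). The reads of all 5 subunits together were level between STZ and buffer (1637 against 1591, count ratio 1.03, interval 0.958 to 1.1) and lower in STZ than in saline (1637 against 1798, count ratio 0.908, interval 0.849 to 0.972).

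**Figure D2:**
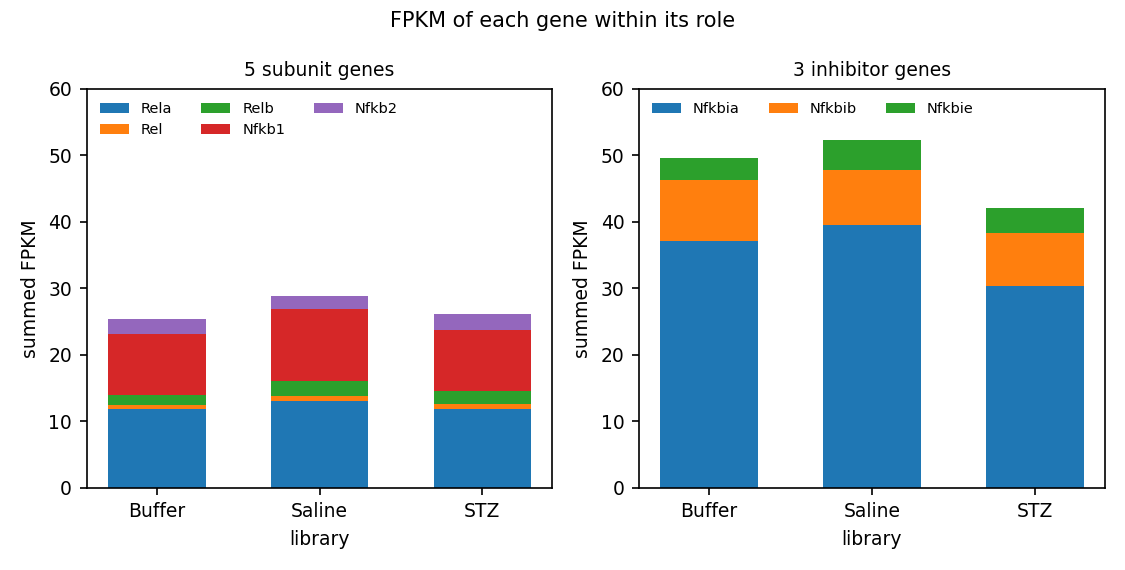
Summed FPKM of the 5 subunit genes (left) and the 3 inhibitor genes (right) in the Buffer, Saline and STZ libraries, 1 bar per library from 0, with each gene as a coloured segment. Rela and Nfkb1 make up 80.3% to 83% of the subunit bars, and the inhibitor bar is lowest in STZ (42.09 FPKM against 49.59 in buffer and 52.34 in saline), with Nfkbia as its largest segment.

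Nfkbia encodes IkBα, the inhibitor that is destroyed first on stimulation and resynthesised from an NF-kB-driven promoter. It had 1089 reads in buffer, 1158 with saline and 894 after STZ, or 37.1, 39.52 and 30.39 FPKM. The controls were close to each other and the STZ library was below both. The fold was 0.824 in STZ compared with buffer (log2 -0.28), with a count ratio of 0.82 (interval 0.749 to 0.896), and 0.775 in STZ compared with saline (log2 -0.37), with a count ratio of 0.77 (interval 0.705 to 0.841). Saline compared with buffer gave a count ratio of 1.06 (interval 0.979 to 1.16). Among the expressed genes, 7.31% had a lower log2 fold than Nfkbia in STZ compared with buffer and 6.97% in STZ compared with saline. Nfkbia was the only one of the 10 genes whose interval excluded 1 in the same direction against both controls, and its fold stayed inside the thresholds. How many of the expressed genes did the same was not counted. Against buffer alone the interval excluded 1 for 45% of them, and against saline alone for 50.4%.

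Nfkbib encodes IkBβ, which holds dimers more persistently. It had 235, 213 and 204 reads across buffer, saline and STZ, or 9.15, 8.31 and 7.93 FPKM. STZ was the lowest library, but both intervals held 1: the count ratio was 0.867 in STZ compared with buffer (interval 0.715 to 1.05) and 0.955 in STZ compared with saline (interval 0.785 to 1.16).

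Nfkbie encodes IkBε, a slower feedback inhibitor that is also NF-kB-inducible. Its reads numbered 101, 136 and 114 in buffer, saline and STZ, or 3.34, 4.51 and 3.77 FPKM. The order of the libraries was that of Relb, with buffer lowest and saline highest. Saline compared with buffer gave a count ratio of 1.35 (interval 1.03 to 1.76), while STZ compared with buffer gave 1.13 (interval 0.854 to 1.49).

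The 3 inhibitors together had 1425, 1507 and 1212 reads across buffer, saline and STZ. The count ratio of this sum was 0.849 in STZ compared with buffer (interval 0.786 to 0.917) and 0.802 in STZ compared with saline (interval 0.743 to 0.866). Without Nfkbia it was 0.945 (interval 0.808 to 1.1) and 0.909 (interval 0.778 to 1.06), so Nfkbia, with 72.2% to 75.5% of the inhibitor FPKM, decided the lower sum. Summed inhibitor FPKM over summed subunit FPKM was 1.96 for buffer, 1.81 for saline and 1.61 for STZ, a lower message ratio of inhibitors to subunits in the STZ library, with no replicate to give its spread.

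Ikbkb encodes IKKβ, the catalytic kinase of the canonical branch. It had 1561, 1376 and 1480 reads across buffer, saline and STZ, or 21.55, 19.02 and 20.39 FPKM. STZ lay between the controls, and the only interval that excluded 1 was between the controls themselves (count ratio 0.882 in saline compared with buffer, interval 0.82 to 0.949). The other genes of the kinase complex, named after their values were seen, were unlike each other: Chuk, which encodes IKKα, had 1698, 1675 and 1875 reads, and Ikbkg, which encodes the scaffold NEMO, had 1231, 1304 and 885 reads. Ikbkg was lower in STZ than in both controls, with a fold of 0.78 and a count ratio of 0.718 against buffer (interval 0.657 to 0.783) and a fold of 0.777 and a count ratio of 0.677 against saline (interval 0.621 to 0.738). Chuk was higher, with count ratios of 1.1 (interval 1.03 to 1.18) and 1.12 (interval 1.04 to 1.19). The 3 genes summed to 4490, 4355 and 4240 reads, a count ratio of 0.943 in STZ compared with buffer (interval 0.904 to 0.983) and of 0.971 (interval 0.931 to 1.01) both in STZ compared with saline and in saline compared with buffer.

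Tnfaip3 encodes A20, which removes activating ubiquitin chains from upstream adaptors and is among the most NF-kB-responsive genes known. It had 224, 243 and 253 reads across buffer, saline and STZ, or 2.39, 2.61 and 2.71 FPKM. STZ was the highest library by a small margin, with a count ratio of 1.13 in STZ compared with buffer (interval 0.938 to 1.36) and 1.04 in STZ compared with saline (interval 0.868 to 1.24). Both intervals held 1 in the gene that has 3 of the kB matches printed above.

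**Figure D3:**
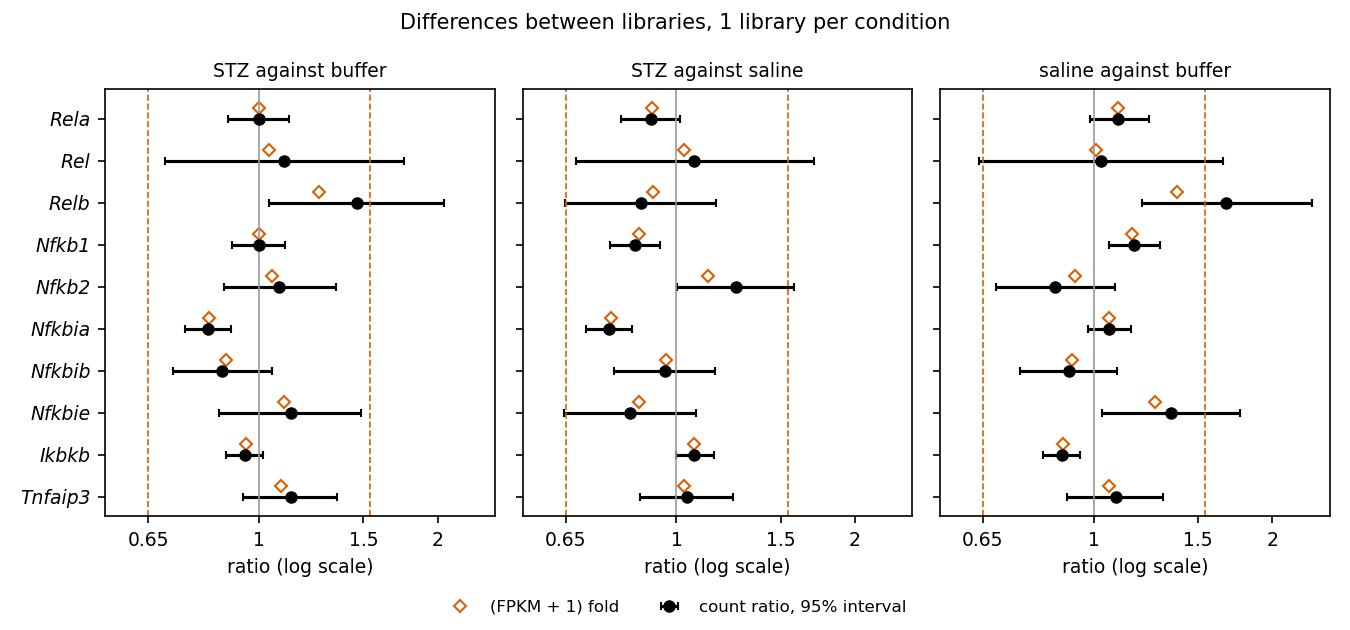
Ratios (log scale) of the 10 genes for each pair of libraries (panels), with 1 library per condition; black points and bars are the count ratio with its 95% interval, open diamonds the (FPKM + 1) fold, and dashed lines the thresholds 0.65 and 1.54. No diamond crosses a dashed line, and the Nfkbia bar lies wholly below 1 in both STZ panels.

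The 6 genes with a kB match in the promoter window had folds of 0.824 to 1.1 in STZ compared with buffer and 0.775 to 1.13 in STZ compared with saline. Rela and Nfkbib, without a match, had folds of 0.88 to 0.998 and of 0.911 to 0.959, which lie within those ranges. Over all expressed genes with a promoter in the table, the median log2 fold in STZ compared with buffer was 0.04 for the 1141 with a match and 0.03 for the 10402 without one. Past the fold, 2.89% were higher and 0.526% lower with a match, beside 2.22% and 0.808% without one. In STZ compared with saline the shares were 2.37% and 1.93% beside 2.09% and 1.59%. These differences were not tested.

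The surrounding pathway was read from 5 lists by role, with 115 genes in all, of which 110 were in the table and 88 were expressed. The lists were chosen with earlier results of these data known, so the shares below are a description and not an independent test. Past the fold, 8 of the 88 (9.09%) were higher in STZ compared with buffer and 0 lower, against 2.58% higher and 1.15% lower of all expressed genes. In STZ compared with saline 4 of the 88 (4.55%) were higher and 0 lower, against 2.37% and 1.95%, and in saline compared with buffer 2 (2.27%) were higher and 0 lower, against 1.01% and 0.443%. The median log2 fold of the 88 was 0.07, 0.03 and 0.07 in the 3 comparisons. Target genes held 6 of the 8 that were higher than in buffer and 3 of the 4 that were higher than in saline.

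Upstream kinases and adaptors carry the signal from receptors to the IkB kinase. None of their 28 expressed members passed the fold in STZ against either control, and the median log2 fold was 0.05 against buffer and -0.03 against saline. Map3k7, which encodes the kinase TAK1, had folds of 1.11 and 1.05, from 3181, 3365 and 3549 reads across buffer, saline and STZ, and its deposited count is partly fractional. Irak1, a kinase of the Toll-like and interleukin-1 receptors, had folds of 1.03 and 0.959.

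Of the receptors and ligands, 8 of 17 in the table were expressed. Ltbr, the lymphotoxin beta receptor of the non-canonical branch, had 714, 681 and 680 reads across buffer, saline and STZ (folds 0.952 and 0.995), and Tnfrsf1a, the main TNF receptor, had 219, 251 and 260 reads (folds 1.16 and 1.04). The 1 gene past the fold, against buffer only, was Tnfrsf12a, named after its value was seen, with 14, 26 and 35 reads (fold 1.7). The cytokines, also named after their values were seen, had few reads: Tnf had 2, 1 and 3, Il1b had 5, 6 and 3, and Il1a had 1, 1 and 15, a count ratio of 15 against each control with an interval from 2.3 to 630.

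Other inhibitors and deubiquitinases had 16 expressed members with a median log2 fold of -0.01 against both controls. Tnip2, which encodes ABIN-2, a partner of A20, passed the fold against both. It had 214, 249 and 446 reads across buffer, saline and STZ, or 4.39, 5.47 and 9.08 FPKM, with folds of 1.87 and 1.56 and count ratios of 2.08 (interval 1.76 to 2.46) and 1.79 (interval 1.53 to 2.1). Tax1bp1, an adaptor that brings A20 to its substrates, had folds of 1.06 and 1.12, and Commd1, which promotes loss of p65 from DNA, had folds of 0.988 and 1.16 on counts that are partly fractional.

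The 14 ubiquitin ligases and cofactors had a median log2 fold of 0.02 against buffer and none passed the fold in STZ against either control. The most abundant were Skp1, part of the ligase that marks phosphorylated IkB, with folds of 1.01 and 1.02, and Rps3, a ribosomal protein that also associates with p65, with folds of 0.914 and 0.932.

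Target genes, known from other systems to be induced by NF-kB, had 22 expressed members with a median log2 fold of 0.41 in STZ compared with buffer, 0.17 in STZ compared with saline and 0.15 in saline compared with buffer. Psmb9, an immunoproteasome subunit, had 14, 31 and 102 reads across buffer, saline and STZ (folds 4.04 and 2.54 in STZ), and Tap1, a peptide transporter of antigen presentation, had 30, 39 and 195 reads (folds 2.96 and 2.67). Both of these genes are also known to be induced by interferon. Bcl2a1, a survival gene of myeloid cells, had 3, 9 and 23 reads, so its comparison with buffer rests on 3 reads, with a count ratio of 7.65 against buffer (interval 2.31 to 39.8) and 2.55 against saline (interval 1.14 to 6.26).

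Of the 22 target genes, 19 had a count ratio above 1 in STZ compared with buffer and 16 in STZ compared with saline. The share of all expressed genes with a ratio above 1 was not counted, so no lean is read from these counts. In saline compared with buffer 20 of the 22 target genes had a ratio above 1, and the same limit holds. The most abundant were inside the fold thresholds: Bcl2l1, which encodes the survival protein Bcl-xL, had count ratios of 1.16 (interval 1.09 to 1.24) and 1.11 (interval 1.04 to 1.19), and Sod2, the mitochondrial superoxide dismutase, had folds of 0.98 and 0.903 from 932, 1013 and 914 reads across buffer, saline and STZ. Named after their values were seen, Gadd45b, Slfn2 and Cd83 passed the fold in STZ compared with buffer (1.57, 1.63 and 1.89) and not in STZ compared with saline. The 2 genes past the fold in saline compared with buffer were Cd83 (1.81) and Psmb9 (1.59), so part of their distance from buffer was present between the controls. Vcam1, an adhesion molecule of endothelium and also named after its values were seen, had 499, 497 and 317 reads, with a fold of 0.673 against buffer that stayed inside the threshold.

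**Figure D4:**
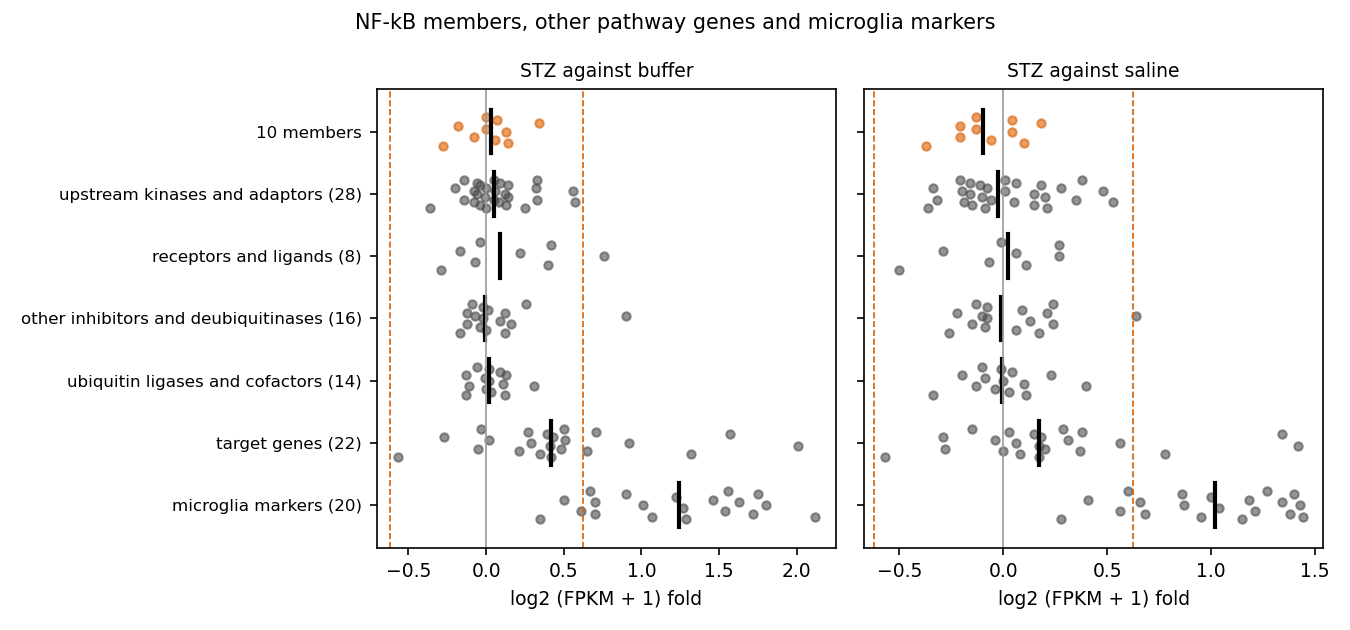
Log2 (FPKM + 1) fold of the 10 NF-kB genes, of the 5 lists of other pathway genes and of 20 microglia markers, in STZ against buffer (left) and STZ against saline (right), 1 point per expressed gene; black bars are medians, dashed lines the thresholds. The 10 genes centre on 0.03 and -0.10, the target genes on 0.41 and 0.17, and the microglia markers on 1.25 and 1.02.

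Markers of other cell types differed between the libraries beside these results. The 20 microglia markers, none at 0 in any library, summed to 85.5, 107 and 258 FPKM in buffer, saline and STZ. Of the 20, 17 passed the fold upward against buffer and 16 against saline. Of all expressed genes, 2.58% passed upward and 1.15% downward against buffer, and 2.37% and 1.95% against saline. Among the microglia markers C1qa, a complement subunit and one of the most abundant, had 208, 255 and 602 reads. In RNA of whole retina, more cells of a type and more RNA per cell cannot be told apart. By staining, the study reported more IBA1+ microglia in STZ-treated retinas, at P4 and later. The part of microglia in the levels of Relb, Nfkb2, Tnip2, Psmb9, Tap1 and Bcl2a1 was not tested. The 12 retina markers, none at 0, held the label of the tissue, with 1620 to 1700 summed FPKM, 1 of the 12 past the fold (Lhx2, lower against both controls) and Crx and Nrl, photoreceptor regulators, as the most abundant.

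The other markers moved in several directions. The 12 lens crystallins summed to 15.2, 48.1 and 297 FPKM in buffer, saline and STZ, with 2 of them at 0 in the buffer library. The 12 ciliary and pigment epithelium genes summed to 115, 280 and 112 FPKM, with 1 at 0 in buffer. The saline library was highest, as for Rela, Nfkb1, Relb, Nfkbia and Nfkbie. Much of this sum was Aldh1a1, with 46.63, 167.7 and 46.53 FPKM. Of the 10 expressed genes of this list, 9 had a count ratio above 1 in saline compared with buffer. Ttr went the other way, with 46.17, 38.67 and 44.01 FPKM. The 8 endothelial markers summed to 126, 135 and 88.2 FPKM, most of it Kdr, and the other 7 to 19.6, 17.2 and 8.05 FPKM. Of the 8, 3 were below the fold in STZ against each control, beside 1.15% (buffer) and 1.95% (saline) of all expressed genes. The lowest was Cldn5, with 188, 154 and 37 reads. The endothelial genes had the STZ library lowest, as did the 5 astrocyte markers (14.7, 16.3 and 7.59 FPKM), none of either list at 0. Nfkbia and Vcam1 were also lowest in STZ. Nfkbib was lowest there too, but its intervals held 1 against both controls, and Rela was level between STZ and buffer. Summed over the genes in the table, the lymphocyte markers (3 genes) had 129, 171 and 207 reads, nearly all of them Cd4, the neutrophil markers (5 genes) 18, 17 and 41, and the red blood cell markers (5 genes) 464, 590 and 343. Whether tissue makeup contributed to any level of the 10 genes was not tested.

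Genes with the same pattern over the 3 libraries were searched for Relb and Nfkbia, which had the largest log2 folds of the 10 in STZ compared with buffer. Likeness was the Euclidean distance between the pairs of log2 count ratios of STZ and of saline to buffer, over 10967 genes with whole counts and a mean of at least 50. For Relb the nearest were Colgalt2, with 105, 174 and 154 reads (distance 0.015), Tspan10, with 46, 76 and 68 (0.0256), and B3gnt7, with 47, 77 and 69 (0.0308), and 10 genes lay within 0.1. For Nfkbia they were Frat2, with 517, 549 and 424 reads (0.00246), Otud4, with 4455, 4745 and 3661 (0.00277), and Zeb1, with 2381, 2528 and 1964 (0.00723), and 356 genes lay within 0.1. The distances are a description of these 3 libraries. The limit of 0.1 is narrower than the counting error of Relb, and a pattern far from no change has fewer neighbours by construction, so the 2 numbers are not comparable.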

How the data were processed

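Retinal RNA was sequenced in 3 libraries, 1 per condition, from TruSeq cDNA. The authors mapped reads with TopHat2 after FastQC, on rn6 by the submitters' processing notes, dropped reads that mapped to several places, computed FPKM with an R script of their own, and deposited for each gene an FPKM, a TPM and an estimated count. How the estimated counts and TPM were made, and the annotation, are not given in the sources used here. The deposited estimated counts, fractional for 12.9% to 13.2% of values but for none of the 10 genes, were rounded to whole numbers. They sum to 21977843 to 22031249 reads per library. The deposited TPM were used as an alternative scale.

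Folds were (FPKM + 1)/(FPKM + 1), with the thresholds of the study's methods. Count ratios have exact Clopper-Pearson 95% intervals. No model was fitted, since no condition has replicates. The members and lists were chosen with earlier results of these data known. Named were all 10 members and, per list, up to 4 genes past the fold in the same direction against both controls and the 2 most abundant, at a mean of at least 10 counts. For brevity some marker genes under this rule are given only in their list's sums. Likeness used 3 genes for each of 2 members.

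Promoters came from RefSeq, assembly GRCr8. The files' build is rn6, so coordinates are those of the promoter table alone. Of the table's identifiers, 17120 matched RefSeq. Scaling alternatives used edgeR 4.0.16 and DESeq2 1.42.0 in R 4.3.3. The rest used Python 3.11.15, numpy 2.4.6, pandas 2.3.3, scipy 1.17.1 and matplotlib 3.10.9. Calculations were tested on simulated data.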

Additional observations from a re-analysis of the deposited data

How the results depend on the processing

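With 1 library per condition no replicate could be left out. No paired analysis was possible because each condition has 1 library and no test was run. Of 160 alternative folds of the 10 genes (pseudocount, TPM, CPM, TMM or DESeq2 scaling, mean of both controls), all 160 moved by less than their counting interval. The alternatives reuse the same reads, and the TMM and DESeq2 factors lay between 0.985 and 1.014. Moves inside the counting interval were therefore nearly built in and are no check on the spread between replicates. Of the 160 folds, 1 passed the threshold: Relb in saline compared with buffer under a pseudocount of 0.1 (1.61), so that 1 of the 10 genes passed there. TMM or DESeq2 scaling moved the median of all genes by -0.03 or less on the log2 scale and turned the sign of 1 member, Nfkb1 in STZ compared with buffer, whose fold was 1.

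Under the rule that the counting interval excludes 1, the counts were 2, 3 and 4 of the 10 genes and 44, 42 and 23 of the 88 pathway genes in STZ compared with buffer, STZ compared with saline and saline compared with buffer. The pathway counts are 50%, 47.7% and 26.1%, beside 45%, 50.4% and 27.8% of all expressed genes. They split into 33 higher and 11 lower, 21 and 21, and 19 and 4, so the absence of lower genes in the main rule did not hold here. In STZ compared with buffer 37.5% were higher and 12.5% lower, beside 26.2% and 18.8% of all expressed genes. The shares were 23.9% and 23.9% beside 26.9% and 23.5% in STZ compared with saline. For saline compared with buffer they were 21.6% and 4.55% beside 15.9% and 12%. With a pseudocount of 0.1 the pathway counts of 8, 4 and 2 became 19 (17 higher, 2 lower), 14 (11 and 3) and 7 (7 and 0). These are 21.6%, 15.9% and 7.95%, beside 8.37%, 9.76% and 4.53% of all expressed genes. By direction, 19.3% were higher and 2.27% lower in STZ compared with buffer, beside 5.52% and 2.86% of all expressed genes. The shares were 12.5% and 3.41% beside 5.01% and 4.75% in STZ compared with saline. For saline compared with buffer they were 7.95% and 0% beside 3.4% and 1.13%. With thresholds of 2 and 0.5 the pathway counts were 3, 2 and 0, or 3.41%, 2.27% and 0% beside 1.39%, 1.34% and 0.598%. On TPM they were 11 in STZ compared with buffer, 8 (1 lower) in STZ compared with saline and 4 in saline compared with buffer. These are 12.5%, 9.09% and 4.55%, beside 5.05%, 6.32% and 2.36% of all expressed genes. On CPM the pathway counts were 14 (1 lower) in STZ compared with buffer and 8 (1 lower) in STZ compared with saline. These are 15.9% and 9.09%, beside 5.03% and 6.24% of all expressed genes. Against the mean of both controls 5 passed, or 5.68% beside 3.61% of all expressed genes. The cause of these differences was not tested, beyond the fact that a smaller pseudocount admits genes with few reads. Depth limits Rel, with 38 to 42 reads, most.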
